A study of Mus musculus with 8 samples.

Results

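The feedback inhibitors of NF-κB are read here as 10 mouse genes: Nfkbia, Nfkbib, Nfkbie, Nfkbiz, Tnfaip3, Tnip1, Zc3h12a, Dusp1, Ier3 and Socs3. The products of most are known to brake inflammatory signalling, and IκBζ, the product of Nfkbiz, has activating roles as well. They were chosen by symbol, and all 10 were found among 18645 genes in activated hepatic stellate cells (AHSC) and among 17408 genes in bone marrow-derived macrophages (BMDM). RNA from C57BL/6 mice was sequenced as 8 libraries, 2 in each of 4 groups. AHSC, primary cells that had become activated on uncoated plastic with serum, were exposed to vehicle (named untreated in the labels) or to 0.03 µM auranofin for 12 h. They had been taken from liver by a ficoll and percoll density gradient, and the age of the mice was not given in the sources used here. BMDM were grown from 8-week-old male mice in M-CSF. Both BMDM groups received LPS at 100 ng/ml with ATP at 1 mM, and 1 of them also auranofin for 1 h, at 0.1 µM in the labels and 0.3 µM in the study's legend. The time in LPS before auranofin was not given for these libraries. Auranofin is a gold-containing anti-rheumatic drug. No BMDM library without LPS and no AHSC library with LPS was analysed here, so the induction of these genes by LPS itself could not be measured. Neither the labels nor the methods say whether the libraries of a group came from separate cultures or animals, so the p-values measure the spread between these libraries, which may be technical.

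In resting cells NF-κB dimers are held in the cytoplasm by IκB proteins. LPS, sensed by TLR4, activates the IKK complex, which marks IκBα for degradation, and the freed dimers switch on inflammatory genes. Among the genes that rise after LPS are brakes on the response. New IκBα pulls NF-κB off DNA, A20 edits ubiquitin chains upstream of IKK, and Regnase-1 degrades cytokine mRNAs. DUSP1 inactivates p38 and JNK, and SOCS3 restrains cytokine receptors that use JAK kinases. The mRNAs of these brakes are short-lived, and many are read as early NF-κB responses.

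The promoters of Nfkbia, Nfkbie and Tnfaip3, which carry the NF-κB letters, and that of Dusp1, with a cAMP response element, are shown as examples. The first 3 were among the 4 members with the largest differences in AHSC, and Dusp1 levels overlapped there. Tnip1 and Socs3 carry the NF-κB letters too but are not shown, and their log2 differences in AHSC were -0.08 and 0.03. Whether the letters go with the differences was not tested. They are 250 bases before the annotated RefSeq start (GRCm38.p6), written in the direction of transcription. Capitals mark the kB letters GGGNNNTTC on either strand, or, in Dusp1, the element TGACGTCA.
Nfkbia promoter, chr12:55492648-55492897, minus strand: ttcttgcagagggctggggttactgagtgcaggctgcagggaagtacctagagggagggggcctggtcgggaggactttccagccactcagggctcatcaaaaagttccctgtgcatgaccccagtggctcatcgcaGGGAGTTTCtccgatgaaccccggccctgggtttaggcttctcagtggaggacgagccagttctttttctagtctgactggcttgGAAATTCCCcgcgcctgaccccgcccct
Nfkbie promoter, chr17:45555450-45555699, plus strand: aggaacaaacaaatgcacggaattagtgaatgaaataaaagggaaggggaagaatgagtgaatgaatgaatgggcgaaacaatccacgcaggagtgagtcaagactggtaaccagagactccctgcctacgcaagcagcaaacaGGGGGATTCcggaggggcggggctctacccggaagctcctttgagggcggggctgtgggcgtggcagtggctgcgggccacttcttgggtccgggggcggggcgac
Tnfaip3 promoter, chr10:19015411-19015660, minus strand: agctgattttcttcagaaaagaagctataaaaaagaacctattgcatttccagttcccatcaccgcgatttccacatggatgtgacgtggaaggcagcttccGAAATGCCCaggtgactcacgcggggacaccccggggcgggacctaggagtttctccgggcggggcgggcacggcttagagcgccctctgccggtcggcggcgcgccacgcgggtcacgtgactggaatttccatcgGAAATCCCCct
Dusp1 promoter, chr17:26508473-26508722, minus strand: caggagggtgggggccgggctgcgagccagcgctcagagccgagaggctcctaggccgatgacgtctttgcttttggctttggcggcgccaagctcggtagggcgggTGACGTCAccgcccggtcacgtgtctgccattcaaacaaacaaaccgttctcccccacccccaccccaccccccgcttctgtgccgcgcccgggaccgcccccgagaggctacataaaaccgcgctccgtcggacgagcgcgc
Promoters of 9 of the 10 members were found, and Nfkbiz was not matched. With a pair of starts for Tnfaip3, this gave 10 promoters. The kB letters occurred in 6 of them, from 5 members (Nfkbia, Nfkbie, Tnfaip3, Tnip1 and Socs3), against 11.8% of 32851 mouse promoters of the same length. In Nfkbia they lay at positions -113 to -105 and -28 to -20 from the start. In Dusp1 the cAMP response element lay at -143 to -136 and was found in 1.55% of all promoters. The AP-1 letters TGANTCA occurred in Nfkbie and Tnfaip3 (6.75% of all promoters), the STAT letters TTCNNNGAA in Socs3 and Tnip1 (7.02%), and the antioxidant response letters TGACNNNGC in Dusp1 and Nfkbia (10.2%). The heat shock letters GAANNTTC occurred in 0 of the 10, against 6.69% of all. The only matches that overlapped were a pair of kB matches on opposite strands in Tnip1. A match is a description of the letters and not evidence of binding.

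Levels are given in FPKM, fragment counts per gene that are corrected for transcript length and library size. Depth was estimated from the smallest steps between low FPKM values at 29800000 to 39400000 fragments in AHSC and 27500000 to 34900000 in BMDM. For the 5 members with a single RefSeq transcript this is 510 to 3611 fragments per library in AHSC and 3315 to 46147 in BMDM, a counting error of at most 4.43% and 1.74% of a value. The AHSC libraries also held macrophage mRNA: 14 of 15 macrophage markers averaged at least 1 FPKM, and the 15 summed to between 7806 and 7832 FPKM with vehicle and between 7679 and 7702 with auranofin. The 12 stellate cell markers were all present, at 4399 to 4533 FPKM with vehicle and 3826 to 3925 with auranofin. All 8 endothelial markers averaged at least 1 FPKM as well, summing to 191 to 196 FPKM with vehicle and 188 to 201 with auranofin. In such bulk samples fewer cells of a type and less RNA per cell cannot be told apart, and the share of each cell type in the members' values was not tested. In BMDM the macrophage markers summed to 7432 to 7578 FPKM with vehicle and 7538 to 8355 with auranofin, and the stellate markers to at most 10.99 FPKM. With vehicle, the macrophage sums of AHSC were thus above those of BMDM and above the stellate sums of AHSC. The AHSC values below are therefore those of a mixed culture with a large macrophage signal, although the tables were normalized separately. The auranofin libraries of BMDM did not resemble each other. Auranofin replicates 1 and 2 differed by at least 1.5-fold in 2814 of 9232 genes (30.5%), against 128 genes (1.39%) between the vehicle libraries. The 9 genes of oxidative and heat stress summed to 216 to 224 FPKM in the vehicle libraries, to 7145 FPKM in auranofin replicate 1 and to 216 FPKM in auranofin replicate 2. At least 1.5-fold from both vehicle libraries were 1678 genes above and 798 below in replicate 1, but 27 above and 17 below in replicate 2. Replicate 2 was thus close to vehicle in these measures, and whether both libraries reflect the labelled treatment equally was not tested. This bears on every BMDM mean over the auranofin libraries. In AHSC the same 9 genes summed to 633 to 675 FPKM with vehicle and to 1615 to 1817 with auranofin.

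All 10 members averaged at least 1 FPKM in the AHSC libraries and in the BMDM libraries. In AHSC with vehicle, Nfkbia had the highest mean of the 10, 53.5 FPKM, and Socs3 the lowest, 6.79 FPKM. Their levels lay between percentiles 35.4 and 89.2 of the 12149 genes tested. Next to Nfkbia came Dusp1, Ier3, Tnip1, Nfkbib, Tnfaip3, Nfkbiz, Zc3h12a and Nfkbie in falling order, and the vehicle libraries of neighbours overlapped only between Nfkbia and Dusp1. In LPS/ATP-treated BMDM with vehicle, the mean levels ran from 43.7 FPKM for Zc3h12a to 809 FPKM for Nfkbia, between percentiles 83.7 and 99.2 of 9232 genes. There Socs3 stood second at 462 FPKM, followed by Dusp1, Tnfaip3, Nfkbib, Nfkbiz, Ier3, Tnip1 and Nfkbie. The vehicle libraries of Tnfaip3 overlapped those of both its neighbours, Dusp1 and Nfkbib.

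**Figure D1:**
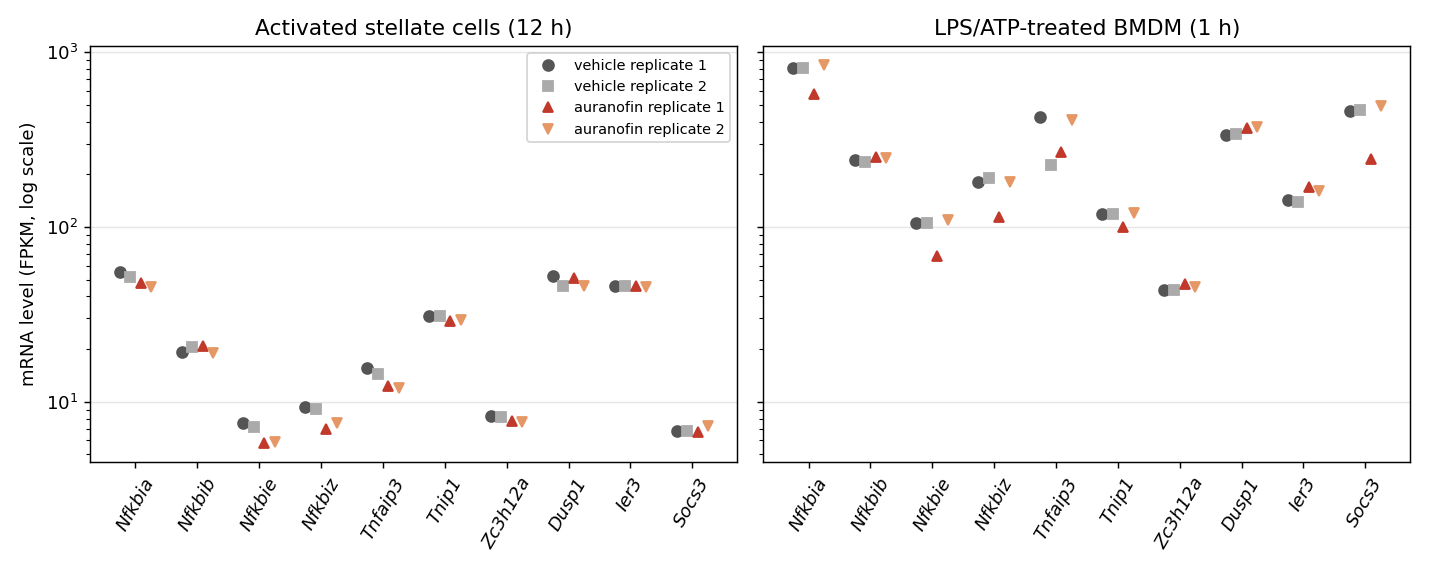
FPKM of the 10 feedback inhibitors (log axis) in each of the 4 libraries of AHSC (left) and of LPS/ATP-treated BMDM (right), 1 point per library. The AHSC vehicle means run from 6.79 to 53.5 FPKM and those of BMDM from 43.7 to 809 FPKM, and the pair of tables was normalized separately.

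The place of Socs3 differed most between the cell types. Its vehicle mean in BMDM was 68.1 times that in AHSC, the largest ratio of the 10. Tnfaip3 followed at 21.8 times, Nfkbiz at 20.3, Nfkbia at 15.1, Nfkbie at 14.3 and Nfkbib at 12.04. The smallest ratios were those of Ier3 (3.07), Tnip1 (3.83), Zc3h12a (5.33) and Dusp1 (6.86). These ratios are a description, because cell type, LPS and the normalization of the tables differed together. The AHSC vehicle libraries also held mRNA of endothelial cells and of macrophages, the latter with marker sums above those of BMDM with vehicle. Which cells gave the members' values in AHSC was not tested.

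The first comparison asked what auranofin did to these genes in AHSC. No member passed the adjusted threshold or was changed by 1.5-fold. Lower values in both auranofin libraries than in both vehicle libraries were nevertheless seen in 7 of the 10, and the 4 members with the largest differences were Nfkbiz, Nfkbie, Tnfaip3 and Nfkbia, each lower by 1.15- to 1.23-fold. The members' differences were tested with limma on log2(FPKM + 1) over all 12149 genes averaging 1 FPKM or more, and adjusted by Benjamini-Hochberg. Of all genes 2.33% had an adjusted p under 0.05 and 0.576% were past 1.5-fold with an unadjusted p under 0.05, against 0 of the members by either rule. An unadjusted p under 0.05 with a lower level was found in 4 members and in 9.22% of all genes. Both auranofin libraries lay below both vehicle libraries in 23.9% of all genes. The same auranofin libraries had the lower stellate marker sums and the higher stress gene sums given above, and the part of either in the members' values was not tested.

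Nfkbia encodes IκBα, the inhibitor that is degraded and resynthesised in each cycle of NF-κB activity (chr12:55489409-55492647). In AHSC it stood at 55.5 and 51.6 FPKM with vehicle and at 47.5 and 45.6 FPKM with auranofin. Both treated libraries were below both vehicle libraries, by a log2 difference of -0.20 ± 0.048 (SE), with an adjusted p of 0.117 by limma with Benjamini-Hochberg. Nfkbie encodes IκBε, a slower inhibitor that NF-κB also induces (chr17:45555700-45563169). Its levels were 7.51 and 7.18 FPKM with vehicle, against 5.79 and 5.89 FPKM with auranofin, groups that did not overlap. The log2 difference was -0.29 ± 0.051, and the adjusted p by limma with Benjamini-Hochberg was 0.0565. Nfkbib encodes IκBβ, which is less dependent on NF-κB for its own expression (chr7:28758251-28766644). Its vehicle levels of 19.3 and 20.5 FPKM overlapped the auranofin levels of 20.9 and 18.9 FPKM, with a log2 difference of -0.0017 ± 0.061. Nfkbiz encodes IκBζ, a nuclear IκB that acts mainly as a coactivator of secondary response genes (chr16:55811375-55838954). It was at 9.34 and 9.09 FPKM with vehicle and at 7.01 and 7.57 FPKM with auranofin. The groups did not overlap, the log2 difference was -0.30 ± 0.054, the largest of the 10 in size, and the adjusted p by limma with Benjamini-Hochberg was 0.0582.

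Nfkbie and Nfkbiz lay just outside the adjusted threshold and inside it under 2 of the other settings. With only genes averaging 5 FPKM or more their adjusted p-values by limma with Benjamini-Hochberg were 0.0480 and 0.0471, and with each library centred on its median they were 0.0440 and 0.0443. Of all genes tested, 3.76% and 2.57% had an adjusted p under 0.05 in these settings. Other settings moved them further outside, to 0.157 and 0.158 without a filter on low values, 0.0780 and 0.0904 without trend, and 0.180 for both without auranofin replicate 1, by the same test. Without vehicle replicate 2, which leaves 1 vehicle library, the log2 differences of Nfkbia and Tnfaip3 were -0.25 and -0.33.

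Tnfaip3 encodes A20, the ubiquitin-editing enzyme that shuts off signalling upstream of IKK (chr10:19000910-19015410). In AHSC its levels were 15.5 and 14.3 FPKM with vehicle, against 12.36 and 11.96 FPKM with auranofin. Both treated libraries were lower, with a log2 difference of -0.27 ± 0.052 and an adjusted p of 0.0649 by limma with Benjamini-Hochberg. Tnip1 encodes ABIN-1, a ubiquitin-binding partner of A20 (chr11:54910787-54962956). Its levels were 30.83 and 30.96 FPKM with vehicle, against 29.10 and 29.29 FPKM with auranofin. The replicates of Tnip1 were tight and did not overlap, but the difference was small, -0.08 ± 0.035 on the log2 scale, with an adjusted p of 0.320 by limma with Benjamini-Hochberg.

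Zc3h12a encodes Regnase-1, an endoribonuclease that cleaves inflammatory mRNAs (chr4:125118414-125127881). It stood at 8.25 and 8.14 FPKM with vehicle and at 7.71 and 7.63 FPKM with auranofin, a log2 difference of -0.08 ± 0.046. Dusp1 encodes a phosphatase of p38 and JNK (chr17:26505591-26508472). Its levels overlapped, at 52.2 and 46.1 FPKM with vehicle against 51.0 and 46.1 FPKM with auranofin. Ier3, an immediate early gene linked to survival and to damping of NF-κB (chr17:35821713-35822911), was at 45.94 and 45.93 FPKM with vehicle and at 45.80 and 45.17 FPKM with auranofin. The log2 differences of Dusp1 and Ier3 were -0.02 ± 0.074 and -0.01 ± 0.034. Socs3, the inhibitor of JAK kinases at cytokine receptors (chr11:117966079-117970336), was at 6.78 and 6.81 FPKM with vehicle and at 6.71 and 7.26 FPKM with auranofin. It was the only member whose mean was higher with auranofin, by 0.03 ± 0.056 on the log2 scale, and its groups overlapped. The adjusted p-values of these 4 genes and of Nfkbib by limma with Benjamini-Hochberg were between 0.401 and 0.994.

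**Figure D2:**
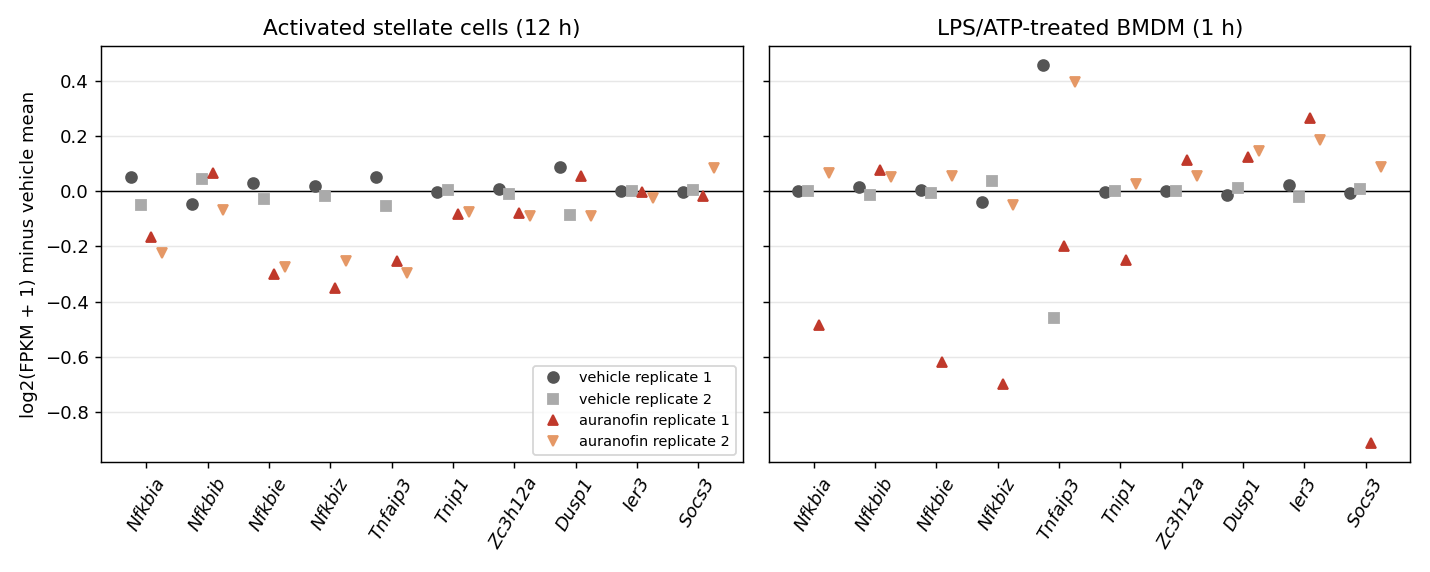
Each member's log2(FPKM + 1) minus the mean of the 2 vehicle libraries of the same cell type, 1 point per library, in AHSC (left) and LPS/ATP-treated BMDM (right). In AHSC both auranofin points of Nfkbia, Nfkbie, Nfkbiz and Tnfaip3 lie below both vehicle points, and in BMDM auranofin replicate 1 lies at -0.91 for Socs3 while auranofin replicate 2 lies at 0.09.

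The second comparison asked the same of LPS/ATP-treated BMDM, where 1 h of auranofin was given on top of a strong NF-κB stimulus. No member passed the adjusted threshold, none was past 1.5-fold with an unadjusted p under 0.05, and none had an unadjusted p under 0.05 at all. Across the 9232 genes tested these rules called 0.0108%, 0.152% and 0.531%. With so wide a gap between the auranofin libraries, the adjusted test did not recover simulated 2-fold changes, so its lack of calls says nothing about whether the members changed. The rule of 1.5-fold with an unadjusted p under 0.05 recovered 172 of 200 simulated 2-fold changes, and it also called 180 unchanged genes. In that simulation each gene varied on its own, whereas here 1 library stood apart over many genes. The auranofin libraries gave different pictures. In replicate 1, Socs3, Nfkbiz and Nfkbie were at least 1.5-fold below both vehicle libraries, which was the case for 8.64% of all genes. In replicate 2 this was true of 0 members and of 0.184% of all genes.

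Among the IκB genes, Nfkbia was at 809 FPKM in both vehicle libraries, at 578 and 847 FPKM in auranofin replicates 1 and 2. Nfkbie stood at 106 and 105 FPKM with vehicle, at 68.3 and 109.6 FPKM in auranofin replicates 1 and 2. Both were thus lowest in auranofin replicate 1 and highest in auranofin replicate 2, so the groups overlapped. Their log2 differences were -0.21 ± 0.22 and -0.28 ± 0.26, each with an adjusted p of 0.721 by limma with Benjamini-Hochberg. Nfkbiz was at 182 and 192 FPKM with vehicle, and at 115 and 180.4 FPKM with auranofin. It was the only member with both auranofin libraries below both vehicle libraries, as in 12.6% of all genes, but auranofin replicate 2 was at 0.941 of the higher vehicle library and auranofin replicate 1 at 0.599. Its log2 difference was -0.37 ± 0.25, with an adjusted p of 0.721 by limma with Benjamini-Hochberg. Nfkbib, at 242 and 237 FPKM with vehicle, against 252 and 248 FPKM with auranofin, differed in the other direction by 0.06 ± 0.10 on the log2 scale.

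Socs3 had the widest range of the 10 on the log2 scale. Its levels were 460.4 and 464 FPKM with vehicle, 245 and 492 FPKM in auranofin replicates 1 and 2. The auranofin libraries differed 2.004-fold from each other while the vehicle libraries differed 1.01-fold, and the log2 difference of the means was -0.41 ± 0.37 with an adjusted p of 0.721 by limma with Benjamini-Hochberg. Tnip1 showed the same order at a smaller scale, at 118.2 and 118.6 FPKM with vehicle, 99.4 and 121 FPKM in auranofin replicates 1 and 2. Its log2 difference was -0.11 ± 0.14.

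Tnfaip3 was the member with the widest gap between vehicle libraries. They read 426 and 226 FPKM, and the auranofin libraries 270.1 and 409 FPKM. The vehicle libraries therefore differed 1.89-fold, at rank 61 of 9232 genes by that ratio, and both auranofin values lay between them. The log2 difference was 0.10 ± 0.40, with an adjusted p of 0.911 by limma with Benjamini-Hochberg. Tnfaip3 has 2 RefSeq transcripts, and how the fragments were divided between them was not given in the sources used here. Nfkbib, Nfkbie, Nfkbiz and Tnip1 have 2, 2, 3 and 5, and their vehicle libraries differed 1.02-, 1.007-, 1.05- and 1.003-fold. Whether the transcripts bear on the gap of Tnfaip3 was not tested.

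The remaining members were higher in both auranofin libraries than in both vehicle libraries. Ier3 was at 143 and 139 FPKM with vehicle and at 169 and 160.3 FPKM with auranofin, a log2 difference of 0.22 ± 0.11. Dusp1 was at 334 and 340.2 FPKM with vehicle and at 367 and 373 FPKM with auranofin, a log2 difference of 0.13 ± 0.10. Zc3h12a was at 43.70 and 43.72 FPKM with vehicle and at 47.3 and 45.5 FPKM with auranofin, a log2 difference of 0.08 ± 0.10. With Nfkbib these made 4 members with both auranofin libraries above, and 26.3% of all genes showed that order. The median log2 difference of all genes was 0.09 in BMDM, and centring each library on its median turned Nfkbib to -0.029 and Zc3h12a to -0.0088, while Ier3 and Dusp1 kept their sign. The adjusted p-values of Nfkbib, Tnip1, Zc3h12a, Dusp1 and Ier3 by limma with Benjamini-Hochberg were between 0.721 and 0.786.

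**Figure D3:**
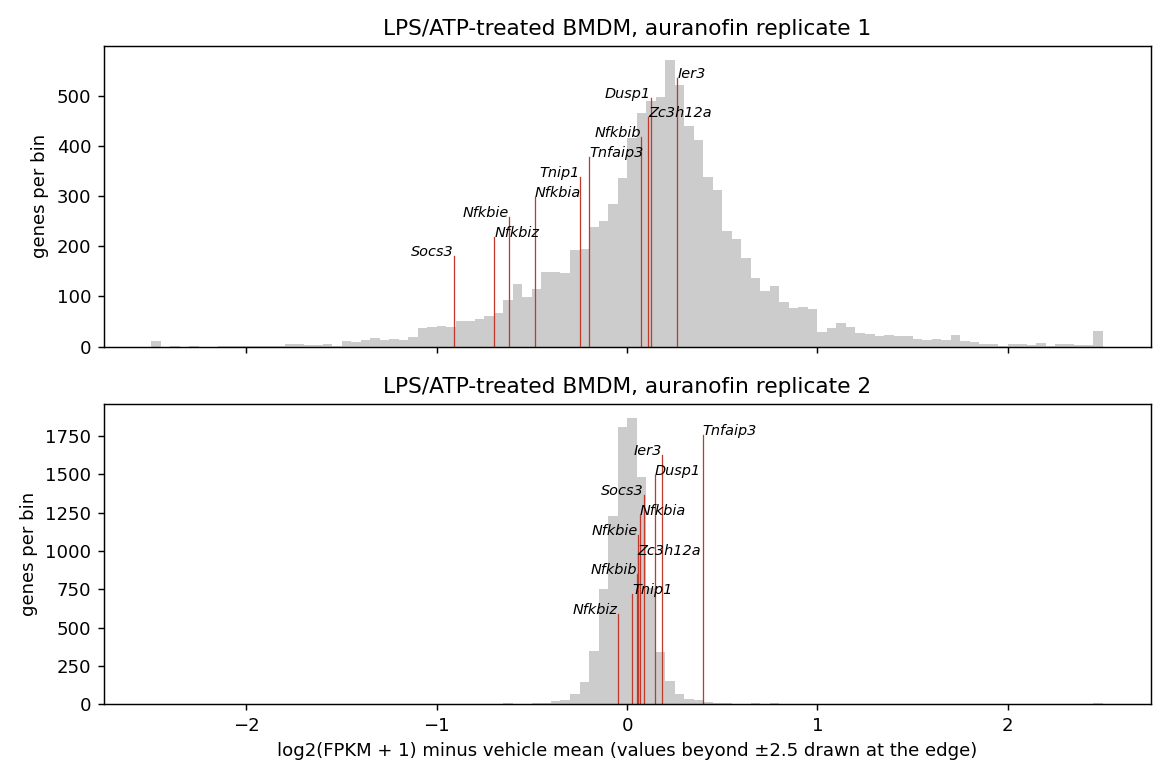
Histograms of log2(FPKM + 1) minus the vehicle mean for the 9232 genes tested in BMDM, for auranofin replicate 1 (top) and auranofin replicate 2 (bottom), with the 10 members marked by red lines whose heights only keep the names apart. Replicate 1 is broad and the members run from -0.91 (Socs3) to 0.26 (Ier3), whereas in replicate 2 they run from -0.049 (Nfkbiz) to 0.40 (Tnfaip3).

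The members' values in BMDM turned on which auranofin library was read. Without auranofin replicate 2, where the spread rests on the vehicle libraries, 7 members had an adjusted p under 0.05 by limma with Benjamini-Hochberg, 5 lower and 2 higher, but so did 65.0% of all genes. The 5 lower members were then Socs3 (log2 difference -0.91), Nfkbiz (-0.70), Nfkbie (-0.62), Nfkbia (-0.48) and Tnip1 (-0.25). Tnfaip3 (-0.20) was lower as well but was not among the 7. The 2 higher members were Ier3 (0.26) and Dusp1 (0.12), while Zc3h12a (0.11) and Nfkbib (0.076) were higher but not among the 7. Without auranofin replicate 1, Nfkbia, Nfkbie, Tnip1 and Socs3 turned to differences of 0.07, 0.06, 0.03 and 0.09. Ratios of members within a library, which no scaling of that library can alter, showed the same split. Nfkbia over Nfkbib was 3.34 and 3.41 with vehicle, 2.29 and 3.42 in auranofin replicates 1 and 2. Socs3 over Dusp1 was 1.38 and 1.37 with vehicle, 0.668 and 1.32 in auranofin replicates 1 and 2. The library with the low ratios was the one with 7145 FPKM of stress gene mRNA, and the part of that response in the members' values was not tested. These pairs were chosen after their values had been seen.

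In AHSC, Nfkbia over Nfkbib was 2.88 and 2.51 with vehicle and 2.28 and 2.41 with auranofin. Nfkbiz over Ier3 was 0.203 and 0.198 with vehicle and 0.153 and 0.168 with auranofin, and in BMDM 1.27 and 1.38 with vehicle and 0.677 and 1.13 with auranofin. For these 2 ratios the AHSC libraries with auranofin lay below those with vehicle. Socs3 over Dusp1 overlapped in AHSC, at 0.130 and 0.148 with vehicle and 0.132 and 0.158 with auranofin.

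The genes around the members were read through 3 lists. The 20 inflammatory NF-κB targets, such as Tnf, Il1b, Il6 and chemokines, are outputs of the pathway. In AHSC, 17 of them were tested and all 17 had lower means with auranofin, as did 47.8% of all genes. Of the 17, 4 had an adjusted p under 0.05 by limma with Benjamini-Hochberg, as did 132 of all 12149 genes with a lower mean. An unadjusted p under 0.05 was found in 12 of the 17, and in 9.22% of all genes with a lower mean. Their median log2 difference was -0.24, against -0.08 for the members and 0.005 for all genes tested. The target past 1.5-fold was Cxcl10, a chemokine that attracts T cells, at 13.9 and 12.8 FPKM with vehicle, against 7.74 and 7.82 FPKM with auranofin. It fell by 0.70 on the log2 scale, with an adjusted p of 0.00565 by limma with Benjamini-Hochberg. The 8 genes of NF-κB subunits and IKK had a median of -0.11, with 3 lower and 1 higher at an unadjusted p under 0.05 and 0 past the adjusted threshold. Of all 12149 genes, 1120 were lower and 1041 higher at such an unadjusted p. Of 31 other negative regulators, among them Zfp36, Irak3, Cyld, further DUSP phosphatases and SOCS proteins, 29 were tested in AHSC. Their median was -0.04, 20 of the 29 were lower, and 0 passed the adjusted threshold, against 1 higher and 5 lower at an unadjusted p under 0.05.

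In BMDM all 20 targets were tested, 0 passed the adjusted or the unadjusted threshold, and 18 had lower means, as did 33.9% of all genes. Their median was -1.01 and 0.06 in auranofin replicates 1 and 2, and 15 of the 20 were at least 1.5-fold below both vehicle libraries in replicate 1, against 8.64% of all genes. For the members the medians were -0.22 and 0.06, for the subunits and IKK -0.21 and 0.01, for the 30 other regulators tested 0.11 and 0.02, and for all genes 0.18 and 0.005. In replicate 1 the other regulators included 9 genes at least 1.5-fold above and 7 at least 1.5-fold below both vehicle libraries, against 18.2% and 8.64% of all genes. The lists were written by hand with earlier results of these data known, so these counts and medians are a description without a test.

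**Figure D4:**
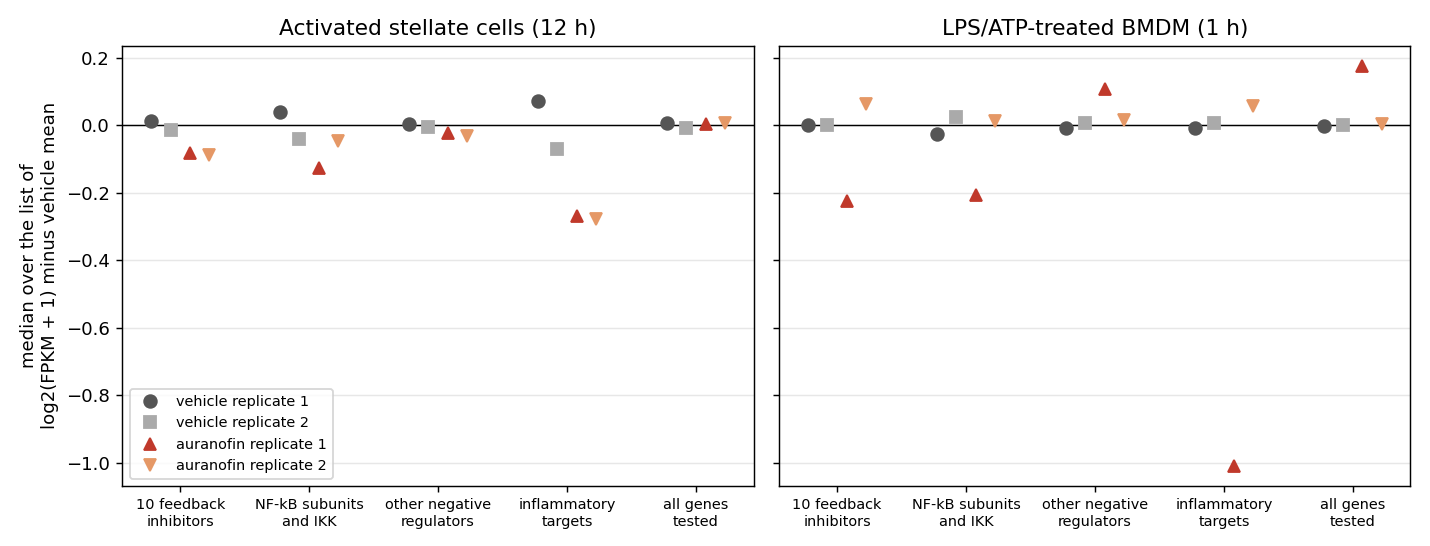
Median over each gene list of log2(FPKM + 1) minus the vehicle mean, 1 point per library, for AHSC (left) and LPS/ATP-treated BMDM (right). The inflammatory targets lie at -0.27 and -0.28 in the AHSC auranofin libraries, and at -1.01 and 0.06 in auranofin replicates 1 and 2 of BMDM.

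The genes most like the 3 widest-ranging members were sought among 8963 genes tested in both cell types, by the Euclidean distance of the log2(FPKM + 1) values minus the vehicle mean over the 8 libraries. Nearest to Socs3 were Casp8 (distance 0.070), Irf2 (0.083) and Myd88 (0.112). Casp8 encodes an initiator caspase, Irf2 an interferon regulatory factor, and Myd88 the adaptor of most Toll-like receptors. Myd88 was at 205 and 207 FPKM in the BMDM vehicle libraries, at 117 and 221 FPKM in auranofin replicates 1 and 2. Nearest to Nfkbiz were Lcp1 (0.078), which encodes the actin-bundling protein L-plastin, Ifit2 (0.118), an interferon-induced gene, and Il6 (0.131), the cytokine gene. Il6 was at 414 and 417 FPKM with vehicle, 264 and 430.3 FPKM in auranofin replicates 1 and 2. Nearest to Tnfaip3 were Aes (0.358), Max (0.464) and H2afy (0.505). Max, the partner of MYC, was at 93.8 and 46.6 FPKM in the BMDM vehicle libraries, a split in the same direction as that of Tnfaip3. These distances are a description over 8 libraries that share their library effects.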

How the data were processed

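The 10 genes and all gene lists were chosen with earlier results of these data known. Libraries were made from total RNA with the TruSeq Stranded mRNA kit. The authors deposited FPKM values, 1 table per cell type, headed with mm10. The submitters' processing notes name CASAVA, FastQC 0.11.7, Trimmomatic 0.38, HISAT2 2.1.0 and StringTie 1.3.4d, with no role given. No counts were used, so the depth was estimated from steps of 1 fragment in values under 0.2 FPKM. Whether strand was used in counting is not given in the sources used here. Nfkbib overlaps Ccer2 and Tnip1 a pseudogene, Gm12230, neither listed in the AHSC table.

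Each table was analysed alone, because the tables were normalized separately. The scale was log2(FPKM + 1), genes averaging under 1 FPKM across the 4 libraries were left out, and auranofin was compared with vehicle by limma 3.58.1 (lmFit, eBayes with trend; R 4.3.3), with Benjamini-Hochberg adjustment over all genes tested. All 10 members passed this filter in both tables. Fold changes on this scale understate those of low genes. An exact two-sided permutation of 2 libraries against 2 cannot give a p under 0.333 and was not used. All 10 members were named in the text, and of each list at most 3 genes past 1.5-fold and an unadjusted p under 0.05. The test was checked on simulated data: at an adjusted p of 0.05 it recovered nearly all 2-fold changes with the spread of AHSC and none with that of BMDM. By 1.5-fold and an unadjusted p under 0.05 it recovered 99% and 86%, and called 20 and 180 unchanged genes. No pair of replicates agreed within sampling noise. Alternatives were a pseudocount of 0.1, no filter, a mean of at least 5 FPKM, quantile normalization, median centring, eBayes without trend, a replicate block, and each library left out in turn. Promoter sequences and coordinates came from RefSeq (GRCm38.p6, the assembly of mm10). Python 3.11.15, numpy 2.4.6, pandas 2.3.3 and matplotlib 3.10.9 were used.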

Additional observations from a re-analysis of the deposited data

Results flagged for a closer look

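The members Ier3 and Zc3h12a had lower means with auranofin in AHSC and higher means in BMDM, with groups that did not overlap in either. Taken singly, 23.9% of all genes showed the AHSC order and 26.3% the BMDM order. The share of genes with both was not counted. Ier3 had a log2 difference of -0.01 ± 0.034 (SE) in AHSC, smaller than its error, and of 0.22 ± 0.11 in BMDM. The BMDM value exceeded the AHSC value by 0.239. Zc3h12a had a difference of -0.08 in AHSC and of 0.08 in BMDM, 0.168 apart. For neither gene was this contrast of cell types tested. Dose, time and LPS differed between the cell types and cannot be told apart from them. With each library centred on its median, Zc3h12a in BMDM was at -0.0088, so its directions were then no longer opposite, whereas Ier3 kept both signs under the other settings and with each library left out. None of the values passed an adjusted p of 0.05 by limma with Benjamini-Hochberg with all libraries in.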

How the results depend on the processing

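In AHSC, 2 members instead of 0 passed an adjusted p of 0.05 with a mean of at least 5 FPKM and with median centring. Of all genes tested, 3.76% and 2.57% passed in these settings. The members' median log2 difference of -0.08 ranged from -0.099 to -0.079 with a library left out. In BMDM the leave-one-out ranges were 0 to 7 members with an adjusted p under 0.05, 0 to 3 past 1.5-fold, and -0.22 to 0.062 for the median, with the upper ends of both counts and the lowest median from the fit without auranofin replicate 2. Median centring reversed Nfkbib (-0.029) and Zc3h12a (-0.0088) in BMDM. Leaving out a library reversed differences in AHSC of Dusp1 (-0.10 to 0.070), Nfkbib (-0.069 to 0.066) and Socs3 (-0.016 to 0.085), and in BMDM of Nfkbia (-0.48 to 0.067), Nfkbie (-0.62 to 0.056), Tnip1 (-0.25 to 0.026), Socs3 (-0.91 to 0.089) and Tnfaip3 (-0.36 to 0.56). The other alternatives reversed none of the members' differences. Replicate numbers were shared between the groups. Across genes, the gap between replicates 1 and 2 with vehicle correlated with that with auranofin at 0.109 in AHSC and -0.0551 in BMDM. With only 2 pairs per cell type, this cannot settle whether same-numbered libraries were paired. The replicate block gave 0 members past the adjusted p in both cell types. It moved the count of all BMDM genes past 1.5-fold from 14 to 42. Over all genes, the adjusted count in AHSC was 283 and became 49 without a filter, 129 without trend, and 177 to 493 with a library left out. The count past 1.5-fold was 70 in AHSC, against 124 with a pseudocount of 0.1 and 106 to 137 with a library left out. In BMDM the adjusted count of 1 became 0 without a filter and with quantile normalization, 2 without trend, and 1 to 5997 with a library left out. The count past 1.5-fold, 14, became 27 with a pseudocount of 0.1, 22 without a filter, 8 with a mean of at least 5 FPKM, and 14 to 2122 with a library left out. The cause of these shifts was not tested, except that a library left out leaves 1 group with 1 library, which is assumed to vary like the other. In BMDM the median squared difference of the auranofin pair was 34.5 times that of sampling noise at these depths, against 1.81 times for the vehicle pair.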
